A study of Homo sapiens with 16 samples.

Results

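The genes described here encode the subunits of the proteasome and of its regulators, and were taken as every gene whose symbol is PSM, a letter A to G and a number. In the RefSeq gene table this rule was met by 48 genes, and 45 of them had a probe set assigned to a single gene symbol, out of 22411 genes so measured. PSMC5, PSMD7 and PSMD13 were not analysed here. By role, 15 of the 45 were grouped as 20S core genes, with 8 in the alpha ring and 7 in the beta ring. All of these are constitutive subunits except the testis-specific PSMA8 of the alpha ring. The 19S regulatory subunits numbered 14, with 5 ATPases and 9 other subunits. Another 5 belonged to the immunoproteasome (PSMB8, PSMB9, PSMB10, PSME1 and PSME2), 7 were assembly chaperones, 3 were other activators or inhibitors (PSME3, PSME4 and PSMF1), and PSMB11 is the thymus-specific beta subunit. The arrays measured mRNA only, so that protein levels, assembly and peptidase activity were not addressed.

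RNA came from A498, a line of human clear cell renal cell carcinoma (ccRCC), in which doxycycline switches on short hairpin RNAs (shRNAs) against DGAT1 and DGAT2. These acyltransferases add the last fatty acid in triglyceride synthesis, and the study asked how cells cope with low oxygen and low serum when they cannot store fatty acids as triglycerides. The 4 groups were doxycycline hypoxia, doxycycline normoxia, vehicle hypoxia and vehicle normoxia, with 4 arrays each. Treatment lasted 5 days and the oxygen condition 2 days, with 0.5% oxygen in hypoxia. All groups carried both hairpins, delivered by lentivirus and selected with antibiotics, and all were kept in low serum. The design has no doxycycline-treated cells without the hairpins, so that effects of the drug and of the knockdown cannot be told apart. Replicates are labelled as biological, but whether each came from a separate culture is not stated, and p-values therefore measure the spread between these arrays, which may be technical. Levels are on the deposited log2 scale, on which values exceed 16, more than a 16-bit scanner intensity can give, so fold sizes hold on that scale only. A log2 level cannot be compared between genes, whose probes differ.

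The proteasome degrades proteins tagged with ubiquitin. Its 20S core is a barrel of alpha rings, which gate entry, around beta rings, in which PSMB6, PSMB7 and PSMB5 carry the caspase-like, trypsin-like and chymotrypsin-like sites. The 19S particle on the end of the barrel recognises ubiquitin, unfolds the substrate with a ring of ATPases and feeds it in. Interferon gamma induces PSMB9, PSMB10 and PSMB8, which replace PSMB6, PSMB7 and PSMB5 in newly built cores, and also PSME1 and PSME2, which form the PA28 cap, and the resulting immunoproteasome is known for making peptides for MHC class I. NFE2L1 is the transcription factor that raises most constitutive subunits together when proteasome capacity is short, through antioxidant response elements in their promoters. The study used a proteasome inhibitor in a reporter assay of NF-κB, a pathway in which the proteasome destroys the inhibitor NFKBIA and trims NFKB1 and NFKB2.

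The promoters of the 5 immunoproteasome genes are shown because these genes fell together, with the window of PSMG4, which holds the same interferon motif, and that of PSME4, the member that rose. Sequences are from RefSeq (GRCh38.p14), 5′ to 3′, each covering 250 bases before to 50 bases after an annotated start of transcription. Windows were found for 39 of the 45 members, 47 windows in all. Capitals mark matches to the interferon-stimulated response element (TTTCNNTTTC), the gamma interferon activation site (TTCNNNGAA) or the core of the antioxidant response element (TGACNNNGC), on either strand. The windows lie at chr6:32843998-32844297 on the minus strand (PSMB8, the downstream of its 2 annotated starts), chr6:32853942-32854241 on the plus strand (PSMB9), chr16:67936801-67937100 on the minus strand (PSMB10), chr14:24135944-24136243 on the plus strand (PSME1), chr14:24146561-24146860 on the minus strand (PSME2), chr6:3258697-3258996 on the plus strand (PSMG4) and chr2:53970944-53971243 on the minus strand (PSME4).
PSMB8: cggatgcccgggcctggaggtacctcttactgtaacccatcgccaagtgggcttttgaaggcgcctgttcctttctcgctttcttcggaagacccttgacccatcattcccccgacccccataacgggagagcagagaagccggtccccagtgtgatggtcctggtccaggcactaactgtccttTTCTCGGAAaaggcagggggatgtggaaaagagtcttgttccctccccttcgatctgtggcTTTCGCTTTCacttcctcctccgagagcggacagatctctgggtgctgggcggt
PSMB9: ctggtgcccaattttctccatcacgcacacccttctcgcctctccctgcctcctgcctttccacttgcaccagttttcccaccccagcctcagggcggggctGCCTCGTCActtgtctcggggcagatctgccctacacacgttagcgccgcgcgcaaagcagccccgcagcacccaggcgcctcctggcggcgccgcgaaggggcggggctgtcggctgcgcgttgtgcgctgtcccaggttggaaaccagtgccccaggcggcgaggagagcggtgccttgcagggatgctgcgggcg
PSMB10: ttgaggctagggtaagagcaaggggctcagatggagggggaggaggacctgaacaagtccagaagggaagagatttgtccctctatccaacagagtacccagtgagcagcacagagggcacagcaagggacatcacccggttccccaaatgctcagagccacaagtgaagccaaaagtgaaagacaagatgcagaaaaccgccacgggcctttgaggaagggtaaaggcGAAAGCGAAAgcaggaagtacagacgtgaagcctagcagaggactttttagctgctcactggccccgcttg
PSME1: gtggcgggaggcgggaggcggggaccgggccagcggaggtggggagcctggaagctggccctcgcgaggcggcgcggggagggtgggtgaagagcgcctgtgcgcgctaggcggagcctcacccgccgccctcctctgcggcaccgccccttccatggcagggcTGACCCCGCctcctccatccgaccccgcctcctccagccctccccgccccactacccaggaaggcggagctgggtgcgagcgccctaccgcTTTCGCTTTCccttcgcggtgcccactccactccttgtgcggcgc
PSME2: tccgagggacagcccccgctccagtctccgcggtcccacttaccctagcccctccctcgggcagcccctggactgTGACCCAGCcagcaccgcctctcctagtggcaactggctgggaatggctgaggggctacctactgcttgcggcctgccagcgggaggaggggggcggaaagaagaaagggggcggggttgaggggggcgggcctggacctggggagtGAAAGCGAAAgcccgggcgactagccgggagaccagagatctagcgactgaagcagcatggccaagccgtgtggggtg
PSMG4: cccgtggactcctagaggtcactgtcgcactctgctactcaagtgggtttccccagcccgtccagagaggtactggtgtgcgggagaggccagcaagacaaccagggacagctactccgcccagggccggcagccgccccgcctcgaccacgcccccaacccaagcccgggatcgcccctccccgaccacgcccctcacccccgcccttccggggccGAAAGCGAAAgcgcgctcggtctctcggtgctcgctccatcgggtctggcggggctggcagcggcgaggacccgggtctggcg
PSME4: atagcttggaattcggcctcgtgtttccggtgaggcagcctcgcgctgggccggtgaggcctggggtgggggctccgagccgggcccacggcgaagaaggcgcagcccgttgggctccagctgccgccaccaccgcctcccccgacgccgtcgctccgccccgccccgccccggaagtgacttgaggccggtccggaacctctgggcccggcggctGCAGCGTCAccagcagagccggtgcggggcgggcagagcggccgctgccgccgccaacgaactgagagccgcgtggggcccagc

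PSMB8, PSMB10, PSME1 and PSME2 held the same 10 letters at their interferon motif, TTTCGCTTTC or its reverse complement GAAAGCGAAA. Counting with the first transcribed base as 1 and the base before it as -1, the match began at -4 in PSMB8, -21 in PSMB10, 6 in PSME1 and -28 in PSME2. Those 10 letters occurred in 35 of 35114 windows of all genes (0.0997%), 5 of them windows of members, the fifth being PSMG4. The wider motif TTTCNNTTTC was in 4 of 6 immunoproteasome windows, 7 of 47 member windows (14.9%) and 3.57% of all windows. The antioxidant response element core was in 14 member windows (29.8%), against 13.3% of all windows, and the gamma interferon activation site in 8 (17.0%), against 7.66%. The core of the hypoxia response element (ACGTG) was in 10 member windows (21.3%), against 21.4% of all. The CCAAT box was in 18 (38.3%), against 34.6% of all. The motifs can overlap each other, a match describes letters only, and the shared letters were noticed after the sequences were read. In the RefSeq order of protein-coding genes PSMB8 lies between TAP2 and TAP1 and PSMB9 next to TAP1, in the MHC region, and PSME1 and PSME2 are separated by EMC9 alone.

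The knockdown matched the labels on every array. DGAT1 lay between 5.04 and 5.28 on all 8 doxycycline arrays, against 6.24 to 6.99 on the 8 vehicle arrays, and DGAT2 between 5.06 and 5.44, against 6.26 to 7.18. The kidney carcinoma markers PAX8, KRT18, KRT8, MET and VIM ranged from 11.00 to 15.37, whereas leukocyte and endothelial markers stayed below the median level of all genes (4.89), at 2.80 to 4.87, with PTPRC at 3.14 to 3.51. KRT18 and KRT8 themselves fell in doxycycline hypoxia against vehicle normoxia (-0.90 and -0.76), whereas PAX8 (0.32, adjusted p = 0.153), MET (0.36, adjusted p = 0.172) and VIM (-0.09, adjusted p = 0.222) did not pass, although all PAX8 arrays were higher in doxycycline hypoxia (11.35 to 11.51) than in vehicle normoxia (11.00 to 11.19). Of the leukocyte and endothelial markers ITGAM passed, lower in hypoxia, at 4.48 to 4.87 over all arrays. The median of an array's probe sets was 3.91 to 4.11. The number of arrays limits the precision. On the main axis of spread within groups (63.3% of that variance), vehicle hypoxia replicate 4 lay farthest in one direction (45.8). Doxycycline hypoxia replicate 4 lay farthest in the other (-31.5), with vehicle hypoxia replicate 3 (-26.1) and vehicle normoxia replicate 1 (-21.4) not far behind. Doxycycline normoxia replicate 3 was at 22.9. Within their groups, both hypoxia arrays of number 4 also held many extremes of the proteasome genes. Of 45 members, 32 were lowest on vehicle hypoxia replicate 4, and 32 were highest on doxycycline hypoxia replicate 4. Doxycycline hypoxia replicate 1 was the lowest of its group for 30 members. Such extremes were not counted over all genes. The median deviation from the group mean on vehicle hypoxia replicate 4 was -0.18 over members and -0.06 over all genes. On doxycycline hypoxia replicate 4 it was 0.18 and 0.04, and on doxycycline hypoxia replicate 1 it was -0.12 and -0.03.

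Over the 16 arrays the immunoproteasome probe sets averaged 7.90 for PSMB8, 6.91 for PSMB9, 7.11 for PSMB10, 13.21 for PSME1 and 12.91 for PSME2, which gives no order of their transcripts. PSMA8, a testis-specific alpha subunit, averaged 3.29 and PSMB11 3.83, both below the lowest array median. PSMB8 and PSMB9 had 8 probe sets each, and the brightest, placed on an alternative haplotype of chromosome 6, was used. The median SD within a group was 0.15 over members and 0.12 over all genes.

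The broadest change was between doxycycline hypoxia and vehicle normoxia, in which both factors differ. Here 28 of 45 proteasome genes fell and 1, PSME4, rose (limma, Benjamini-Hochberg adjusted over all 22411 genes, threshold 0.05). The share of members that fell was 62.2%, against 13.6% of all genes and 20% of the 11205 genes above the median level. The share that rose was 2.22%, against 7.67% of all genes. The median log2 difference was -0.31 over the members and -0.04 over all genes. The 4 arrays of doxycycline hypoxia were all below the 4 of vehicle normoxia for 25 members, which was so for 16.7% of all genes. By class, 5 of 5 immunoproteasome genes fell (median -0.53, from -0.78 to -0.36), 10 of 15 20S core genes (median -0.32), 5 of 14 19S genes (median -0.23) and 6 of 7 assembly chaperones (median -0.31). The 15 core genes include the testis-specific PSMA8, which was not called. Differences between classes were not tested. In these bulk samples fewer cells with a transcript and less transcript per cell cannot be told apart.

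Leaving out single arrays left between 15 and 31 members called. The lower counts came without doxycycline hypoxia replicate 1 (15), 2 (19) or 3 (16), or without vehicle normoxia replicate 1 (19), 3 (17) or 4 (18). Fewer of all genes fell in these fits too, from 1983 to 2520, against 3053 with all arrays. In all 26 alternatives run, 15 members stayed called, a count that was not made over all genes. These were PSMB8, PSMB9, PSME1, PSME2, PSMA6, PSMA7, PSMB1, PSMB3, PSMC3, PSMD4, PSMF1, PSMG1, PSMG2 and PSMG4, which fell, and PSME4.

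**Figure D1:**
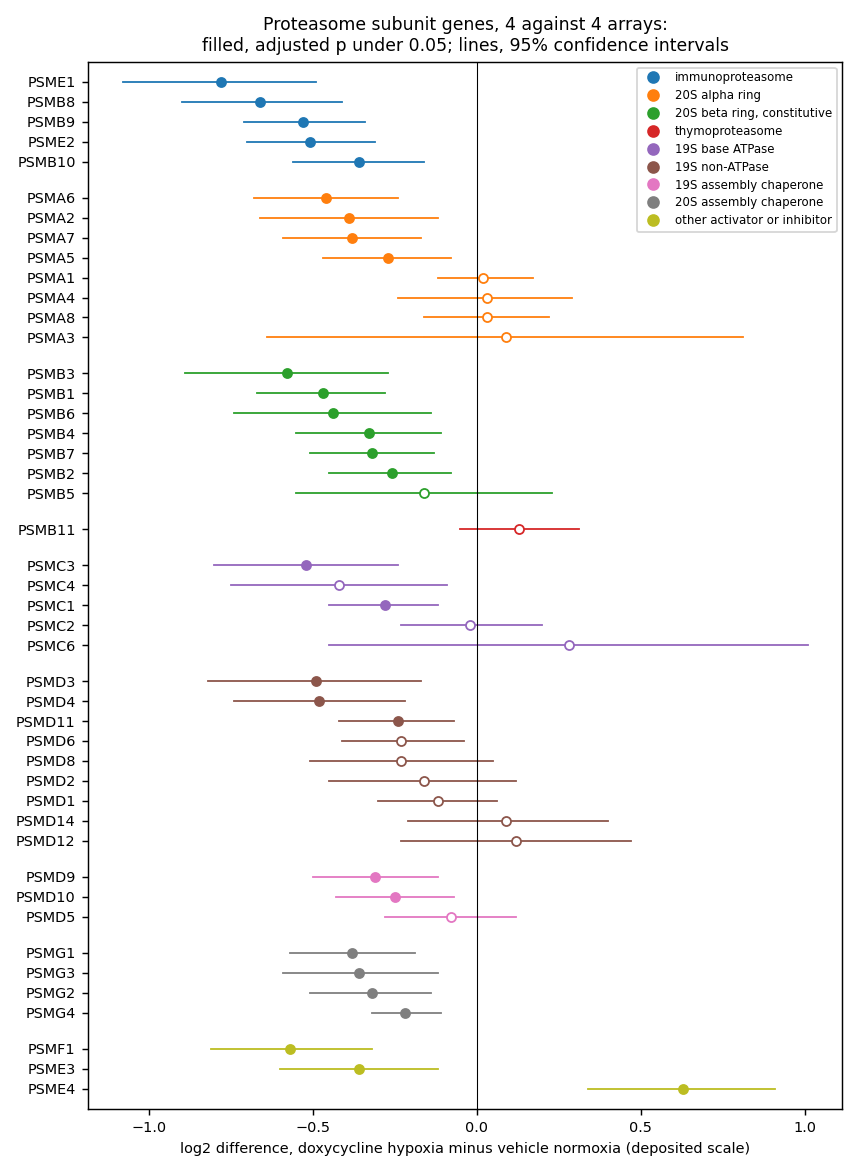
Log2 difference between doxycycline hypoxia and vehicle normoxia for each of the 45 proteasome genes (x axis, deposited log2 scale), ordered within classes, with lines for 95% confidence intervals (n = 4 arrays each). Filled points are the 29 genes past the adjusted threshold, and the 5 immunoproteasome genes at the top lie between -0.78 and -0.36, while PSME4, at 0.63, is the only filled point right of 0.

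PSME1, the alpha subunit of PA28, had the greatest decrease of the members. Its level was 12.65, 12.69, 12.85 and 13.05 on the doxycycline hypoxia arrays, 13.29, 13.48, 13.08 and 13.24 in doxycycline normoxia, 13.17, 13.44, 13.37 and 12.73 in vehicle hypoxia, and 13.71, 13.44, 13.62 and 13.61 in vehicle normoxia. Doxycycline hypoxia did not overlap with either normoxia group, and vehicle hypoxia replicate 4 was as low as its arrays. Against vehicle normoxia PSME1 fell by 0.78 on the log2 scale (95% interval -1.08 to -0.49, adjusted p = 0.00116 by limma), to 58.1% of that level.

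PSMB8, which carries the immunoproteasome's chymotrypsin-like site, was 7.35, 7.49, 7.53 and 7.77 in doxycycline hypoxia, 7.81, 8.04, 7.88 and 7.87 in doxycycline normoxia, 7.95, 8.23, 8.06 and 7.67 in vehicle hypoxia, and 8.28, 8.03, 8.25 and 8.21 in vehicle normoxia. All 4 doxycycline hypoxia arrays were below all 8 normoxia arrays. PSMB8 fell by 0.66 against vehicle normoxia (-0.90 to -0.41, adjusted p = 0.000979 by limma), to 63.3%. Over its 8 probe sets the difference ran from -0.67 to -0.65.

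PSMB9 and PSME2 shared another pattern, in which the normoxia groups lay together. PSMB9, the immunoproteasome's counterpart of PSMB6, was 6.55, 6.57, 6.59 and 6.65 in doxycycline hypoxia, 7.16, 7.27, 7.04 and 7.03 in doxycycline normoxia, 6.69, 7.07, 6.71 and 6.80 in vehicle hypoxia, and 7.16, 7.01, 7.05 and 7.23 in vehicle normoxia. Vehicle hypoxia lay between, apart from replicate 2, which reached into the normoxia range. Against vehicle normoxia PSMB9 fell by 0.53 in doxycycline hypoxia (-0.71 to -0.34, adjusted p = 0.00062 by limma), to 69.5%.

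PSME2, the beta subunit of PA28, was 12.55, 12.64, 12.63 and 12.72 in doxycycline hypoxia, 13.17, 13.31, 13.03 and 13.07 in doxycycline normoxia, 12.65, 13.00, 12.58 and 12.57 in vehicle hypoxia, and 13.12, 13.13, 13.12 and 13.19 in vehicle normoxia. All 8 hypoxia arrays were below all 8 normoxia arrays. PSME2 fell by 0.51 between doxycycline hypoxia and vehicle normoxia (-0.70 to -0.31, adjusted p = 0.00118 by limma), to 70.4%. RefSeq lists 6 pseudogenes of PSME2, whose transcripts its probes may share.

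PSMB10, which carries the immunoproteasome's trypsin-like site, was 6.74, 6.79, 6.90 and 7.02 in doxycycline hypoxia, 7.12, 7.34, 7.22 and 7.18 in doxycycline normoxia, 7.09, 7.33, 7.14 and 6.94 in vehicle hypoxia, and 7.28, 7.01, 7.35 and 7.24 in vehicle normoxia. Doxycycline hypoxia and vehicle normoxia overlapped by a single array of each. PSMB10 fell by 0.36 (-0.56 to -0.16, adjusted p = 0.0152 by limma), and this call was lost without doxycycline hypoxia replicate 1 (adjusted p = 0.0526). The exact two-sided permutation p of the difference was 0.0571 for PSMB10 and 0.0286, the smallest that 4 against 4 arrays allow, for the other 4 immunoproteasome genes.

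**Figure D2:**
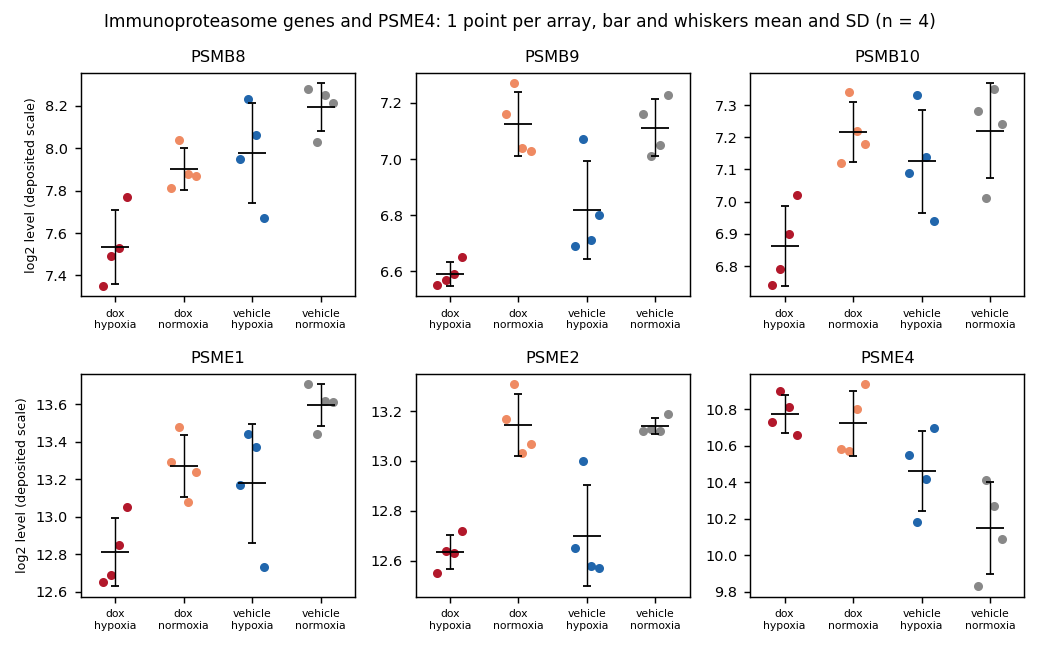
Log2 level on each array (y axis, deposited scale, its range set for each gene) of the 5 immunoproteasome genes and PSME4 in the 4 groups, with the mean and SD (n = 4). PSMB9 and PSME2 were alike in the normoxia groups and lowest in doxycycline hypoxia (means 6.59 and 12.63), and PSME4 had its highest mean in doxycycline hypoxia (10.78) and its lowest in vehicle normoxia (10.15).

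Of the constitutive catalytic subunits, PSMB6 and PSMB7 fell and PSMB5 did not pass. PSMB6 was 13.10, 13.34, 13.33 and 13.59 in doxycycline hypoxia, against 13.85, 13.62, 13.81 and 13.84 in vehicle normoxia. The groups were separated by a narrow gap, and PSMB6 fell by 0.44 (-0.74 to -0.14, adjusted p = 0.0377). PSMB7 was 13.76, 13.89, 13.87 and 14.12, against 14.27, 14.18, 14.24 and 14.22, and fell by 0.32 (-0.51 to -0.13, adjusted p = 0.0206). PSMB5 was between 11.65 and 12.15, against 11.80 to 12.20, so that its groups overlapped. Its difference was -0.16, with an interval (-0.55 to 0.23) that includes the values of PSMB6 and PSMB7 (adjusted p = 0.574). In vehicle hypoxia PSMB5 ranged from 11.24 on replicate 4 to 12.37 on replicate 3, the widest spread of the 3 genes.

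The structural beta subunits fell as well. PSMB3 was 14.26, 14.45, 14.24 and 14.70 in doxycycline hypoxia, against 14.98, 14.90, 14.99 and 15.09 in vehicle normoxia, and fell by 0.58 (-0.89 to -0.27, adjusted p = 0.0115). PSMB1 was 8.61, 8.78, 8.55 and 8.79, against 9.23, 9.05, 9.20 and 9.16, and fell by 0.47 (-0.67 to -0.28, adjusted p = 0.00211). PSMB4 (-0.33, adjusted p = 0.0338) and PSMB2 (-0.26, adjusted p = 0.0375) were called too. The alpha ring was divided: PSMA6 (-0.46), PSMA2 (-0.39), PSMA7 (-0.38) and PSMA5 (-0.27) fell, while PSMA1, PSMA4, PSMA8 and PSMA3 had differences of 0.02, 0.03, 0.03 and 0.09. Of these PSMA8 is testis-specific and averaged 3.29, below the lowest array median. PSMA3 was the least precise, with an interval from -0.64 to 0.81. PSMA6 was 12.09, 12.28, 12.30 and 12.57 in doxycycline hypoxia, against 12.77, 12.72, 12.81 and 12.80 in vehicle normoxia (adjusted p = 0.00536).

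**Figure D3:**
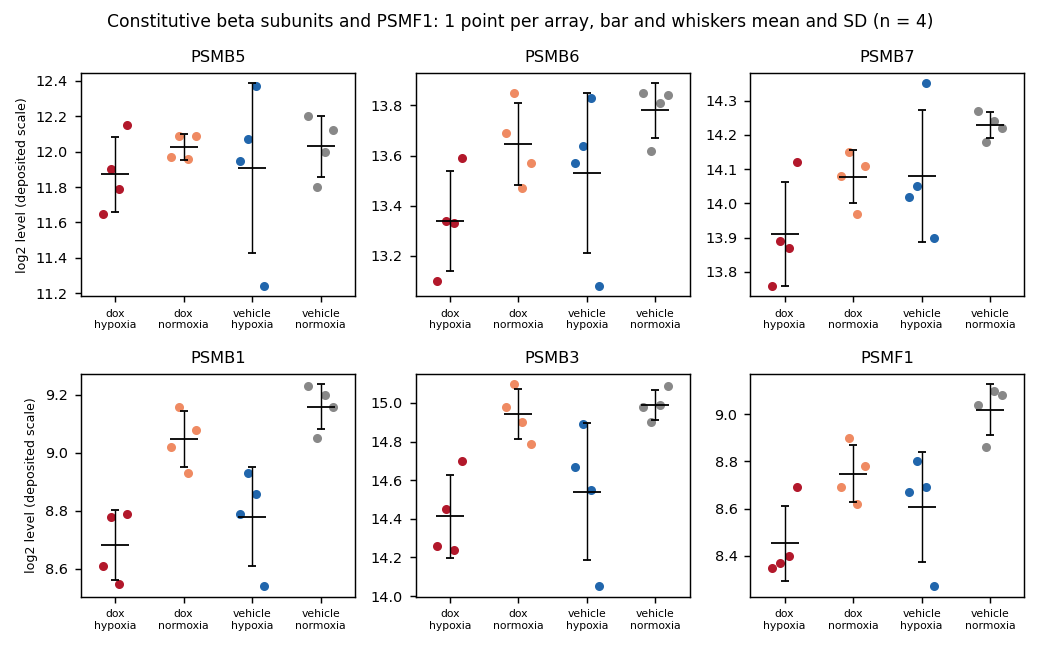
Log2 level on each array (y axis, deposited scale, its range set for each gene) of the constitutive catalytic subunits PSMB5, PSMB6 and PSMB7, the structural subunits PSMB1 and PSMB3 and the inhibitor PSMF1, with the mean and SD (n = 4). For PSMB1 and PSMB3 all doxycycline hypoxia arrays lie below all vehicle normoxia arrays, and PSMB5 in vehicle hypoxia shows the wide range from 11.24 to 12.37.

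In the 19S particle 2 of 5 ATPases and 3 of 9 other subunits fell. PSMC3, an ATPase of the base, was 10.49, 10.82, 10.65 and 10.98 in doxycycline hypoxia, against 11.36, 11.18, 11.21 and 11.27 in vehicle normoxia. These arrays did not overlap, and PSMC3 fell by 0.52 (-0.80 to -0.24, adjusted p = 0.0108). The ATPase PSMC1 fell by 0.28 (adjusted p = 0.018), with 13 pseudogenes listed in RefSeq. PSMD4, a ubiquitin receptor, was 8.83, 8.85, 8.76 and 9.14, against 9.45, 9.31, 9.33 and 9.40, and fell by 0.48 (adjusted p = 0.0118). The scaffold subunits PSMD3 (-0.49, adjusted p = 0.0336) and PSMD11 (-0.24, adjusted p = 0.0459) were also called, although PSMD11 stayed called in 3 of 16 fits that left out an array. PSMC4 came near (-0.42, adjusted p = 0.0667), as did PSMD6 (-0.23, adjusted p = 0.0733). Differences of the remaining 7 ran from -0.23 for PSMD8 to 0.28 for PSMC6. The intervals of PSMD14, the deubiquitinase of the lid (-0.21 to 0.40), and of PSMC2 (-0.23 to 0.20) lay on both sides of 0, and that of PSMC6 was wide (-0.45 to 1.01).

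All 4 chaperones of core assembly fell, and 2 of 3 chaperones of the base. PSMG1 was 8.60, 8.87, 8.61 and 8.95 in doxycycline hypoxia, against 9.15, 9.04, 9.17 and 9.18 in vehicle normoxia, and fell by 0.38 (-0.57 to -0.19, adjusted p = 0.00772). PSMG4, whose promoter window is printed above, was 4.69, 4.79, 4.75 and 4.73, against 4.97, 5.00, 4.96 and 4.90. PSMG4 averaged 4.87 over all arrays, just under the median level of all genes (4.89). Whether its signal stood above background was not tested. The groups of PSMG4 were tight and apart, and the decrease was small, at 0.22 (-0.32 to -0.11, adjusted p = 0.00488). PSMG3 (-0.36) and PSMG2 (-0.32) lay between these. Of the base chaperones PSMD9 (-0.31) and PSMD10 (-0.25) fell, and PSMD5 did not pass (-0.08, interval -0.28 to 0.12).

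PSME4, also called PA200, is a nuclear activator that caps the core in place of the 19S particle, and was the 1 member called higher, of 9 with a difference above 0. It was 10.73, 10.90, 10.81 and 10.66 in doxycycline hypoxia, 10.58, 10.57, 10.80 and 10.94 in doxycycline normoxia, 10.55, 10.18, 10.42 and 10.70 in vehicle hypoxia, and 9.83, 10.41, 10.27 and 10.09 in vehicle normoxia. All 8 doxycycline arrays were above all 4 of vehicle normoxia, and 3 of the vehicle hypoxia arrays were too. PSME4 rose by 0.63 between doxycycline hypoxia and vehicle normoxia (0.34 to 0.91, adjusted p = 0.00418), to 154% of that level. The other nuclear activator, PSME3 or PA28 gamma, was 13.43, 13.56, 13.61 and 13.84, against 13.99, 13.95, 13.97 and 13.95, and fell by 0.36 (-0.60 to -0.12, adjusted p = 0.0339). PSMF1, or PI31, which inhibits the isolated core, was 8.35, 8.37, 8.40 and 8.69, against 9.04, 8.86, 9.10 and 9.08, and fell by 0.57 (-0.81 to -0.32, adjusted p = 0.00308). The thymus-specific PSMB11 differed by 0.13 (-0.05 to 0.31, adjusted p = 0.29).

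The comparisons of a single factor, described next, share arrays with each other and with the comparison above, and their values are given side by side. In hypoxia against normoxia in vehicle-treated cells, which asks what low oxygen did with the hairpins off, 4 of 45 members fell (8.89%), against 4.65% of all genes, and 0 rose, against 2.26%. Of the 11205 genes above the median level, 7.64% fell, near the share of the members, and 4.31% rose. Before adjustment, 19 members had p under 0.05, against 5578 of all 22411 genes and 3997 of those 11205. The median log2 difference was -0.17 over the members and -0.05 over all genes, and 11 members had no overlap between groups with hypoxia lower, against 8.21% of all genes. PSME2 fell by 0.44 (-0.63 to -0.25, adjusted p = 0.0102), PSMB1 by 0.38 (adjusted p = 0.0232), PSMG1 by 0.33 (adjusted p = 0.0362) and PSMF1 by 0.41 (adjusted p = 0.0449). PSMB1 was 8.79, 8.93, 8.86 and 8.54 in vehicle hypoxia, below all vehicle normoxia arrays. PSME2 stayed called whichever array was left out, though not with the methods' t-test (adjusted p = 0.14 after Benjamini-Hochberg), and 1 member was left without vehicle normoxia replicate 1, 3 or 4 or vehicle hypoxia replicate 1 or 4, and 2 without doxycycline normoxia replicate 1 or 4. Without vehicle hypoxia replicate 2 the count was 7. Over all genes 538 to 818 fell in the fits with 1 or 2 members, 1293 without vehicle hypoxia replicate 2 and 1043 with all arrays.

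PSMB9 lay just beyond the threshold in vehicle cells (-0.30, adjusted p = 0.0503). PSME1 (-0.42, adjusted p = 0.0857), PSMB8 (-0.21, adjusted p = 0.252) and PSMB10 (-0.10, adjusted p = 0.517) did not pass. Of the constitutive catalytic subunits, PSMB6 differed by -0.25 (-0.55 to 0.05), PSMB7 by -0.15 (-0.34 to 0.04) and PSMB5 by -0.12 (-0.51 to 0.27). In the 19S particle no member passed, and PSMC4 had the smallest p (-0.51, adjusted p = 0.0617). PSMA6 was nearest in the alpha ring (-0.29, adjusted p = 0.107), and PSMD10 among the base chaperones (-0.28, adjusted p = 0.057). The hairpin targets also differed here: DGAT1 fell by 0.32 and DGAT2 by 0.52.

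In hypoxia against normoxia in doxycycline-treated cells, 5 members fell (11.1%), against 2.97% of all genes, and 0 rose, against 1.02%. Of the 11205 genes above the median level, 5.34% fell and 1.88% rose. Before adjustment, 22 members had p under 0.05, against 3507 of all 22411 genes and 2802 of those 11205. The median was -0.23 over the members and -0.01 over all genes, and 16 members had no overlap with hypoxia lower, against 9.15% of all genes. PSMB9 fell by 0.54 (-0.72 to -0.35, adjusted p = 0.00314) and PSME2 by 0.51 (-0.71 to -0.32, adjusted p = 0.00537), and both stayed called in all 26 alternatives. PSMA6 fell by 0.48 (adjusted p = 0.0158), PSMB1 by 0.36 (adjusted p = 0.0375) and PSMG4 by 0.19 (adjusted p = 0.0381). The count was 12 when vehicle hypoxia replicate 4 was left out, 9 when doxycycline hypoxia replicate 4 was, 8 without vehicle hypoxia replicate 2, and 2 without doxycycline hypoxia replicate 1, 2 or 3. It was 3 without doxycycline normoxia replicate 1, 2 or 4, vehicle normoxia replicate 3 or vehicle hypoxia replicate 1. Of all genes 1036, 782 and 710 fell in the fits with 12, 9 and 8 members. In those with 2 or 3 members 308 to 589 fell, against 665 with all arrays.

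PSMB10 was 6.74 to 7.02 in doxycycline hypoxia, against 7.12 to 7.34 in doxycycline normoxia, and lay near the threshold (-0.35, adjusted p = 0.0544). PSME1 (-0.46, adjusted p = 0.0855) and PSMB8 (-0.37, adjusted p = 0.0968) did not pass after adjustment, although each of the 5 immunoproteasome genes had all 4 hypoxia arrays below all 4 normoxia arrays. PSMB6 differed by -0.30 (adjusted p = 0.31), PSMB7 by -0.17 (adjusted p = 0.392) and PSMB5 by -0.15 (adjusted p = 0.792). PSMD4 was nearest in the 19S particle (-0.37, adjusted p = 0.121), and PSME3 among the activators and the inhibitor (-0.32, adjusted p = 0.152). DGAT1 (0.07, adjusted p = 0.807) and DGAT2 (-0.09, adjusted p = 0.772) did not pass.

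In normoxia, doxycycline against vehicle called 1 member, PSME4, which rose. That is 2.22% of the members, against 4.43% of all genes that rose, and 0 members fell, against 4.65%. The median was -0.05 over the members and -0.02 over all genes. Before adjustment, 8 of 45 members had p under 0.05, against 5581 of all 22411 genes. PSME4 rose by 0.57 (0.28 to 0.86, adjusted p = 0.0155), to 148% of the vehicle level, with no overlap. The call was lost without doxycycline normoxia replicate 4 (adjusted p = 0.0546), when 0 members were left, and with the methods' t-test (adjusted p = 0.0808 after Benjamini-Hochberg), which called 1 other member, lower. The count was 3 without vehicle hypoxia replicate 4 and 2 without doxycycline normoxia replicate 2. Of all genes the former fit called 1338 higher and 1547 lower, and the latter 797 and 815, against 993 and 1042 with all arrays. PSMB8 (-0.29, adjusted p = 0.128) and PSME1 (-0.32, adjusted p = 0.166) had intervals below 0 but did not pass. PSMB9 (0.01, -0.17 to 0.19), PSME2 (0.01, -0.19 to 0.20) and PSMB10 (-0.01, -0.21 to 0.19) had intervals that hold differences of up to about 0.2 either way. PSMB5, PSMB6 and PSMB7 differed by -0.00, -0.13 and -0.15. Nearest to the threshold were PSMA1 in the core (0.22, adjusted p = 0.0583) and PSMG3 among the chaperones (-0.35, adjusted p = 0.0634), with PSMC3 nearest in the 19S particle (-0.30, adjusted p = 0.174). The targets fell to 30.7% (DGAT1) and 28.1% (DGAT2) of the vehicle level.

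In hypoxia, doxycycline against vehicle called PSMB8 alone, which fell by 0.44 (-0.69 to -0.20, adjusted p = 0.0374), to 73.5%. That is 2.22% of the members, against 1.99% of all genes that fell, and 0 members rose, against 2.67%. The groups of PSMB8 overlapped, since vehicle hypoxia replicate 4 (7.67) lay below doxycycline hypoxia replicate 4 (7.77), and the exact permutation p was 0.0571. This call stayed in 6 of 16 fits that left out an array, with adjusted p up to 0.118, and was lost without doxycycline hypoxia replicate 1, 2 or 3, vehicle hypoxia replicate 1, 2 or 3, doxycycline normoxia replicate 1 or 4, or vehicle normoxia replicate 3 or 4. Without vehicle hypoxia replicate 4 it was 1 of 4 members called, and 1002 of all genes fell, against 447 with all arrays. PSMB10 (-0.26, adjusted p = 0.154), PSMB9 (-0.23, adjusted p = 0.17), PSME1 (-0.37, adjusted p = 0.172) and PSME2 (-0.07, adjusted p = 0.787) did not pass. PSMB9 was lower on all doxycycline hypoxia arrays than on any vehicle hypoxia array. PSMB5, PSMB6 and PSMB7 differed by -0.04, -0.19 and -0.17, and PSME4 by 0.31 (adjusted p = 0.238). PSMC3 was nearest in the 19S particle (-0.26, adjusted p = 0.327), PSMA7 in the core after PSMB7 (-0.18, adjusted p = 0.373) and PSMD9 among the chaperones (-0.24, adjusted p = 0.163). DGAT1 fell to 40.2% and DGAT2 to 37.9% of the vehicle level.

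Whether the response to hypoxia differed with the knockdown was tested by the interaction, which called 0 members and 0.0% of all genes in either direction. Before adjustment 0 members and 1026 genes had p under 0.05. The smallest p-values among members belonged to PSMB9 (-0.24, -0.50 to 0.02), PSMB10 (-0.25, -0.54 to 0.04) and PSMA1 (-0.17, -0.38 to 0.04), each with adjusted p = 0.956. PSMB8 was called lower with doxycycline in hypoxia and not in normoxia, and PSMB9 with hypoxia in doxycycline cells and not in vehicle cells. Neither response is therefore shown to differ between conditions.

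**Figure D4:**
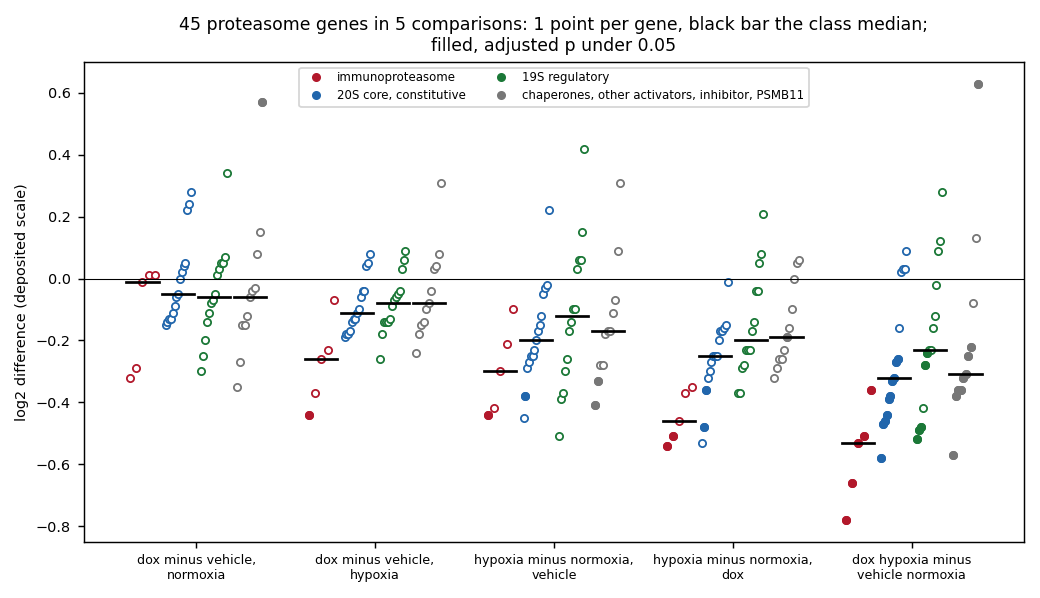
Log2 difference (y axis, deposited scale) of each of the 45 proteasome genes in the 5 comparisons between groups of 4 arrays, coloured by class, with black bars for class medians and filled points for genes past the adjusted threshold. Filled points number 1, 1, 4 and 5 in the comparisons of a single factor and 29 in doxycycline hypoxia against vehicle normoxia, where the immunoproteasome median is -0.53.

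The order of the group means was alike across many members. The highest mean was in vehicle normoxia for 27 of 45 members and in doxycycline normoxia for 12, and the lowest was in doxycycline hypoxia for 31, in vehicle hypoxia for 7 and in vehicle normoxia for 6. The same order was not counted over all genes. For the 28 members that fell in doxycycline hypoxia against vehicle normoxia, the median difference was -0.26 for hypoxia in vehicle cells, -0.28 for hypoxia in doxycycline cells, -0.12 for doxycycline in normoxia and -0.14 for doxycycline in hypoxia. The larger part of their decrease thus lay in the hypoxia comparisons, as a description of genes chosen for that decrease.

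Array by array, the median immunoproteasome gene, relative to its mean over 16 arrays, was at -0.36, -0.34, -0.32 and -0.16 in doxycycline hypoxia. It was at 0.08, 0.27, 0.11 and 0.07 in doxycycline normoxia, at -0.05, 0.23, 0.03 and -0.23 in vehicle hypoxia, and at 0.25, 0.13, 0.25 and 0.31 in vehicle normoxia. All 4 doxycycline hypoxia arrays were below all 8 normoxia arrays, and vehicle hypoxia spanned both. The 15 core genes, PSMA8 included, were at -0.29, -0.13, -0.21 and -0.00 in doxycycline hypoxia, against 0.18, 0.11, 0.17 and 0.16 in vehicle normoxia. The median over all genes moved with these shifts to a lesser degree, from -0.08 on vehicle hypoxia replicate 4 to 0.07 on vehicle normoxia replicate 1. With arrays centred on their medians 19 members fell and 1 rose in doxycycline hypoxia against vehicle normoxia. Centring gave 2294 lower and 1969 higher over all 22411 genes. With another quantile normalization 17 members fell and 1 rose. Over all genes that normalization turned the balance, with 2417 genes higher and 2103 lower, against 1719 higher and 3053 lower as deposited.

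**Figure D5:**
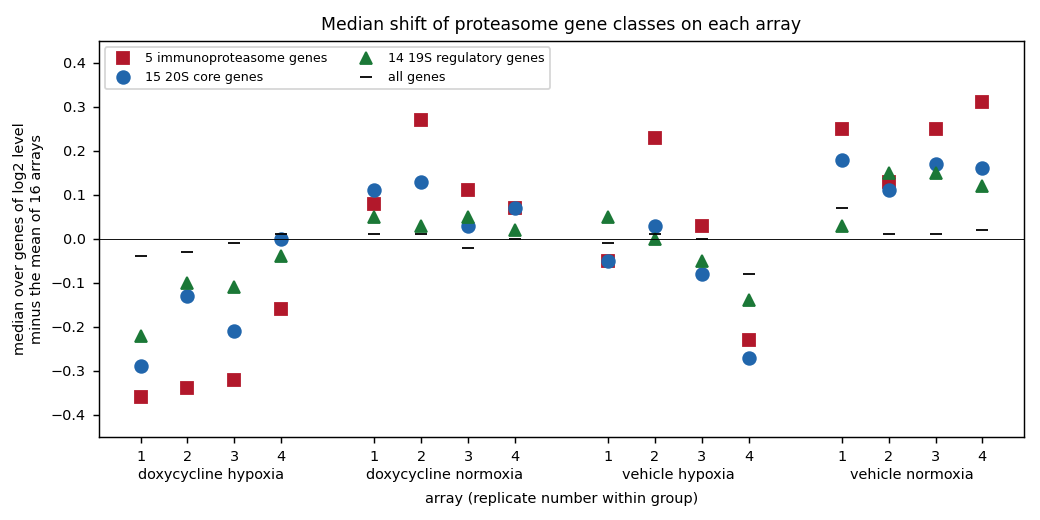
Median over the genes of a class of the log2 level minus its mean over all 16 arrays (y axis), for each array (x axis, replicate numbers within the 4 groups). Immunoproteasome genes (squares) lie at -0.36 to -0.16 in doxycycline hypoxia and at 0.13 to 0.31 in vehicle normoxia, and vehicle hypoxia replicate 4 lies below the other arrays of its group for every class.

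Genes that work with the proteasome did not move as a block. Of 16 measured partners outside the symbol rule, 4 rose (25.0%, against 7.67% of all genes) and 3 fell (18.8%, against 13.6%) in doxycycline hypoxia against vehicle normoxia. ZFAND2A, an arsenite-inducible factor that binds the 19S particle, rose by 0.77 (adjusted p = 0.00185), UBE3C, a ubiquitin ligase bound to the proteasome, by 0.27 (adjusted p = 0.00737), and ECPAS, an adaptor of the 26S particle, by 0.32 (adjusted p = 0.0155). The shuttle UBQLN2 fell by 0.46 (adjusted p = 0.000667), the base chaperone PAAF1 by 0.36 (adjusted p = 0.00634) and the ubiquitin receptor ADRM1 by 0.37 (adjusted p = 0.0453). PAAF1 and UBQLN2 also fell in hypoxia in doxycycline cells (-0.50 and -0.40) and in vehicle cells (-0.41 and -0.30), and ZFAND2A rose in both (0.63 and 0.61). ECPAS rose with hypoxia in vehicle cells (0.33). UBE3C rose with doxycycline in normoxia (0.25), while 0 partners passed with doxycycline in hypoxia. POMP, the maturation factor of the core, differed by 0.03 (adjusted p = 0.858).

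The 6 measured genes of the NFE2L1 axis gave 0 calls in each of the 5 comparisons. NFE2L1 itself differed by 0.02 (adjusted p = 0.84) in doxycycline hypoxia against vehicle normoxia, and NFE2L2, measured with wide error, by 0.70 (adjusted p = 0.121). NFE2L1 is activated by cleavage of its protein, which the arrays did not measure. The 3 measured genes for ubiquitin and its activating enzymes also gave 0 calls, with UBA1 at -0.33 (adjusted p = 0.0577) and UBB at -0.29 (adjusted p = 0.0603). The third, UBA6, went the other way, by 1.46, and varied widely. Its arrays ran from 10.00 to 12.54 in doxycycline hypoxia, against 9.26 to 10.92 in vehicle normoxia.

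Of 19 measured genes of class I antigen processing and its inducers, 6 fell (31.6%, against 13.6% of all genes) and 3 rose (15.8%, against 7.67%) in doxycycline hypoxia against vehicle normoxia. HLA-B fell by 0.56 (adjusted p = 0.000797), IRF1, a transcription factor of the interferon response, by 0.45 (adjusted p = 0.000892), and HLA-E by 0.55 (adjusted p = 0.00247). JAK1 (0.35), PDIA3 (0.20) and IFNGR2 (0.44) rose. TAP1, the peptide transporter gene next to PSMB9, did not pass (-0.22, adjusted p = 0.229), nor did TAP2 (-0.03, adjusted p = 0.783). HLA-B and HLA-E fell with doxycycline in normoxia (-0.38 and -0.52) and in hypoxia (-0.39 and -0.56), where HLA-F fell too (-0.33). IFNGR2 and PDIA3 rose with doxycycline at both oxygen levels, and JAK1 in normoxia. With hypoxia in vehicle cells IRF1 fell (-0.28, adjusted p = 0.0429), and in doxycycline cells 0 of the 19 passed, with IRF1 at -0.26 (adjusted p = 0.0792). HLA genes are alike in sequence and highly variable, so their probe sets may share signal.

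Of the 7 genes for NF-κB precursors, NF-κB inhibitors and the ligase subunits that mark them, BTRC (0.23, adjusted p = 0.0352) and FBXW11 (0.26, adjusted p = 0.0169) rose in doxycycline hypoxia against vehicle normoxia (28.6%, against 7.67% of all genes) and 0 fell. NFKBIA differed by 0.31 (adjusted p = 0.197). BTRC also rose with doxycycline in normoxia (0.41) and in hypoxia (0.32), and 0 of the 7 passed in the hypoxia comparisons.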

How the data were processed

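Total RNA (250 ng per array) was labelled with biotin and hybridised by the study. The deposited table holds log2 values that the authors made by RMA, and Transcriptome Analysis Console is also named in the submitters' processing notes. Their versions, the genome build and the array type of these samples were not given in the sources used here. Values covered 70523 probe sets and 16 arrays and ran from 1.71 to 19.85, and 590 probe sets lay above 16 on all arrays.

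Probe sets with 1 gene symbol (23781) were kept, symbols were updated through RefSeq (GRCh38.p14), and the brightest probe set stood for each gene, giving 22411 genes. Titles gave the groups. A limma model (3.58.1, R 4.3.3) with 4 group means and an intensity trend was fitted to all 16 arrays, two-sided, with Benjamini-Hochberg adjustment over all genes and a threshold of 0.05. It was tested on simulated data. Exact permutation tests used 70 arrangements. Alternatives were the methods' t-test, the replicate block, each array left out, a filter on dim genes, the mean of probe sets, centring, quantile normalization, array weights, only the arrays compared and pairs of arrays left out.

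Members, classes and lists were chosen with earlier results of these data known. By rule the text named the immunoproteasome genes, PSMB5, PSMB6, PSMB7, DGAT1, DGAT2, members past the threshold (the 6 greatest changes per direction where over 12 passed) or the nearest of a class, and up to 3 genes per direction of related lists. Other members are given for completeness. Promoter sequences were from RefSeq.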

Additional observations from a re-analysis of the deposited data

Results flagged for a closer look

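In 6 of 120 groups of 4 arrays, over the 30 members named in at least 1 comparison, a single array stood far from the others. Chance gives about 1 in 20 such groups. All 6 outlying values lay on replicate 4 of doxycycline hypoxia, vehicle hypoxia or doxycycline normoxia. The same array recurs among them, so they are not independent. In doxycycline hypoxia, replicate 4 had PSMA7 at 10.86, against 10.58 to 10.61 on the other arrays, and PSMF1 at 8.69, against 8.35 to 8.40. In vehicle hypoxia, replicate 4 had PSMC3 at 10.57, against 11.09 to 11.19, and PSME3 at 13.30, against 13.81 to 13.83. In doxycycline normoxia, replicate 4 had PSMA5 at 10.44, against 10.57 to 10.59, and PSMD9 at 7.01, against 7.12 to 7.14. The hypoxia arrays are those that stood apart on the main axis of spread within groups. Without both of them, the members that fell numbered 24 with hypoxia in doxycycline cells, 14 with doxycycline in hypoxia, 3 with hypoxia in vehicle cells and 28 in doxycycline hypoxia against vehicle normoxia. Over all genes the lower calls then numbered 1554 (665 with all arrays) for hypoxia in doxycycline cells, 1535 (447) for doxycycline in hypoxia, 720 (1043) for hypoxia in vehicle cells and 4179 (3053) in doxycycline hypoxia against vehicle normoxia.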

How the results depend on the processing

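No alternative reversed the direction of a called member. Leaving out single arrays gave 15 to 31 members called in doxycycline hypoxia against vehicle normoxia, 2 to 12 for hypoxia in doxycycline cells, 1 to 7 for hypoxia in vehicle cells, 0 to 4 for doxycycline in hypoxia and 0 to 3 for doxycycline in normoxia. Lower calls over all genes ranged, in the same order, from 1983 to 3799, 308 to 1036, 538 to 1293, 216 to 1002 and 537 to 1547. Array weights gave 28 for hypoxia in doxycycline cells, 14 for hypoxia in vehicle cells, 20 for doxycycline in hypoxia and 8 for doxycycline in normoxia. Calls over all genes, higher and lower, also increased with the weights, with lower calls at 2176, 2862, 3048 and 2682 in these comparisons, against 665, 1043, 447 and 1042 without them. The filter on dim genes gave 9, 9 and 3 for hypoxia in doxycycline cells, hypoxia in vehicle cells and doxycycline in normoxia. Of the 11507 genes it kept, 871, 1227 and 992 were called lower and 302, 723 and 1123 higher. Quantile normalization gave 18 in doxycycline hypoxia against vehicle normoxia, 3 for hypoxia in doxycycline cells, 0 for doxycycline in hypoxia and 2 for doxycycline in normoxia. It called 2103, 477, 320 and 881 of all genes lower there, and 2417, 305, 1022 and 1359 higher. Centring gave 2 for hypoxia in vehicle cells, with 773 of all genes lower. With only the arrays compared, counts were 0 for hypoxia in vehicle cells, 0 for doxycycline in hypoxia and 4 for doxycycline in normoxia. These fits called 89, 90 and 1305 of all genes lower, and 31, 195 and 1193 higher. The methods' t-test gave 3 for hypoxia in doxycycline cells, 0 for hypoxia in vehicle cells, 0 for doxycycline in hypoxia and 1, not PSME4, for doxycycline in normoxia. That test called 552, 9, 59 and 960 of all genes lower, and 246, 2, 139 and 911 higher. Without both hypoxia arrays of number 4 the counts were 24 for hypoxia in doxycycline cells, 14 for doxycycline in hypoxia and 7 for doxycycline in normoxia. Of all genes 1554, 1535 and 1661 were then lower, and 733, 848 and 1500 higher. Without number 4 of vehicle hypoxia and number 1 of vehicle normoxia the counts were 13 for hypoxia in doxycycline cells, 1 for hypoxia in vehicle cells, 4 for doxycycline in hypoxia and 2 for doxycycline in normoxia. Of all genes 1110, 489, 1100 and 1136 were lower in that fit, and 429, 254, 750 and 1006 higher. The interaction called 0 members in all fits run. The causes were not tested.

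With the replicate block, 18 members were called in doxycycline hypoxia against vehicle normoxia, 3 for hypoxia in doxycycline cells, 1 for hypoxia in vehicle cells and 0 for doxycycline in hypoxia. The block left 2454, 359, 587 and 277 of all genes lower, and 1347, 120, 266 and 441 higher. Same-numbered arrays of different groups correlated in their deviations from -0.835 to 0.536 (24 pairs, median -0.0722), and 2 of 16 arrays correlated best with their own number, so the numbers were not taken as pairs. The median member difference in doxycycline hypoxia against vehicle normoxia stayed between -0.34 and -0.23 in all 27 settings.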
